A study of Mus musculus with 12 samples.

Results

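The 9 genes of the BCL2 family and caspase list act in the mitochondrial route of apoptosis, are 9 of the 36131 genes in the count table, and were followed across the 3 groups of the retinal RNA-seq experiment. They were taken as a named list (Bcl2, Bcl2l1, Mcl1, Bax, Bak1, Bid, Bcl2l11, Bbc3 and Casp9) and matched by symbol to their Ensembl identifiers, and all 9 were counted at levels high enough to be tested. Retinas came from 12 C57BL/6J wildtype mice at P18. The RA-PBS group (animals 1 to 4) stayed in room air and received PBS as placebo, the O2-PBS group (animals 5 to 8) was kept in 75% O2 from P7, returned to room air at P12 and received PBS, and the O2-IC100 group (animals 9 to 12) had the same O2 exposure and received IC100 at 10 µg/g by intraperitoneal injection on P12, P14 and P16. IC100 is a humanized monoclonal antibody against ASC, the adaptor protein of the inflammasome, and the O2 exposure is the oxygen-induced retinopathy (OIR) model, in which vessels are lost in hyperoxia and regrow abnormally after the return to room air. The paper gives the route of the PBS placebo as intravitreal, an injection into the eye. If this holds for these retinas, O2-IC100 and O2-PBS differ in route as well as in antibody, which cannot be told apart. The comparisons ask which of these genes differed after O2, and which differed when IC100 was given.

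In the mitochondrial route of apoptosis, BCL2 family proteins decide whether the outer mitochondrial membrane is opened. Guardians such as BCL2, BCL-XL and MCL1 hold the pore-forming effectors BAX and BAK in check, and BH3-only proteins such as BIM, PUMA and BID release that check or act on the effectors directly. Once the membrane is open, cytochrome c assembles APAF1 into the apoptosome, which activates the initiator caspase-9, which in turn cleaves the executioner caspases. In the developing retina this pathway removes surplus neurons and also regressing vessels. The only caspase among the 9 genes, Casp9, encodes the initiator and not an executioner. A wider list of 52 other cell death genes was read beside the 9.

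Before the results, some libraries stood apart. Total counts were 14906970 to 24437916 per retina. Animal 10 of the O2-IC100 group took 59.0% of its counts from 16 crystallin genes, which are abundant in lens, and its rod markers were at 0.346% of counts against 3.85 to 4.78% in the other 11 retinas. Its TMM scaling factor was 0.3244, while those of the others lay between 1.069 and 1.149. Crystallins also reached 1.25 to 4.50% in RA-PBS animals 2, 3 and 4, and at most 0.0158% in the remaining 8 retinas. The summed level of 4 Y-linked genes was unevenly spread over the groups, with 223 to 273 CPM (counts scaled to 1e+06 per library) in RA-PBS animals 1 to 3, 230 in O2-PBS animal 8 and 283 to 324 in O2-IC100 animals 9, 11 and 12, against 4.04 to 9.85 in the other 5 retinas. The counts of genes past the thresholds are therefore given for all 12 animals and without animal 10, and a single difference given for one fit only names that fit. All levels are CPM after TMM scaling.

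None of the 9 genes passed the thresholds (fold change of at least 1.5, p under 0.05 and adjusted p under 0.1) in any comparison, with or without animal 10, by edgeR's quasi-likelihood test with Benjamini-Hochberg adjustment over all genes. Over all genes tested with 12 animals, 0.807% passed for O2-PBS against RA-PBS, 0% for O2-IC100 against O2-PBS and 0% for O2-IC100 against RA-PBS. Without animal 10, these shares were 6.27%, 0.947% and 1.56%. At an unadjusted p under 0.05, the numbers of the 9 genes with 12 animals were 1, 1 and 2, against 7.12%, 16.9% and 13.2% of all genes, and without animal 10 they were 3, 1 and 2, against 21.9%, 19.2% and 15.6%. DESeq2 and limma voom also put 0 of the 9 genes past all 3 thresholds in each comparison, with and without animal 10. The closest to a difference was Bcl2l11, the gene of BIM, which was higher in O2-PBS retinas than in both other groups once animal 10 was left out. Bcl2l1, the gene of BCL-XL, was lower in O2-PBS than in RA-PBS. With the adjusted p alone as the criterion, these were the 2 genes past 0.1 for O2-PBS against RA-PBS without animal 10, where 12.4% of all genes tested met it. The same criterion alone was met by 0 of the 9 genes elsewhere, against 0.813% of all genes for O2-PBS against RA-PBS with 12 animals and, without animal 10, 1.31% for O2-IC100 against O2-PBS and 2.53% for O2-IC100 against RA-PBS.

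**Figure D1:**
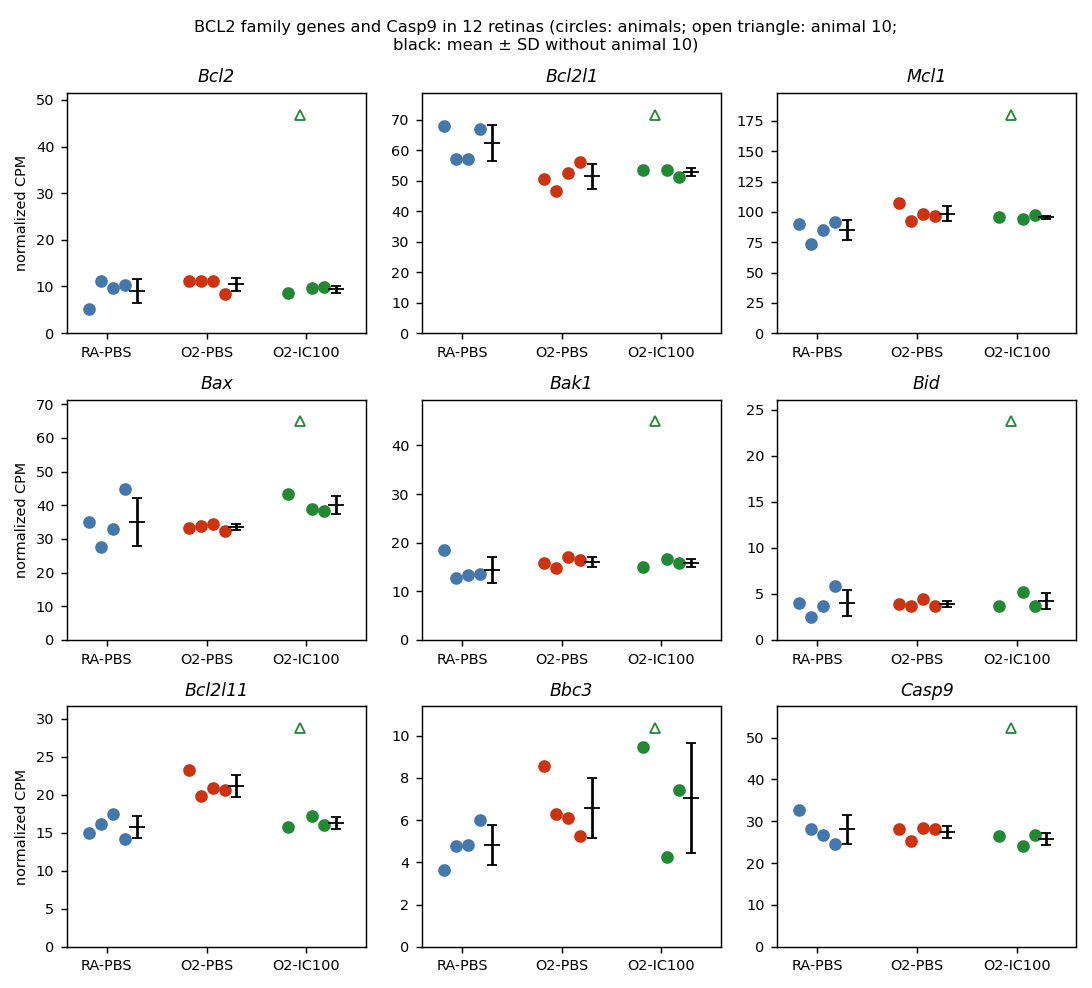
Normalized CPM (vertical axes, from 0) of the 9 genes in each retina by group; circles are animals, the open triangle is animal 10, and the black bar is the mean ± SD without it. Bcl2l11 lay between 19.8 and 23.3 in O2-PBS and between 14.2 and 17.5 in RA-PBS and the other O2-IC100 retinas. After TMM scaling, with a factor of 0.3244, animal 10 was the highest of all 12 retinas for every gene drawn.

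Per kilobase of merged exon, which allows levels of different genes to be set side by side, the 9 genes took an order that spanned a wide range in RA-PBS retinas. Mcl1, a short-lived guardian, was at 24.9 ± 2.44 CPM per kb (SD, n = 4) and Bax, an effector, at 22.3 ± 4.53, and their ranges overlapped. Bcl2l1 followed at 13.6 ± 1.30, apart from both neighbours. The second effector Bak1 (6.01 ± 1.11) and Casp9 (5.40 ± 0.657) overlapped each other, as did the BH3-only genes Bbc3 (2.27 ± 0.453) and Bcl2l11 (1.96 ± 0.180). Bid (1.13 ± 0.388) and Bcl2 itself (0.990 ± 0.288) were lowest and overlapped. The order held in O2-PBS retinas and in O2-IC100 retinas without animal 10 except that Bid and Bcl2 changed places in O2-PBS, where they again overlapped. In those groups Mcl1 (28.9 ± 1.86 and 28.0 ± 0.372) no longer overlapped Bax (21.2 ± 0.596 and 25.4 ± 1.75). Bcl2 was thus the lowest of the 3 guardian genes per kb in these retinas, although its merged exons, at 9157 bases, are the longest of the 9, and a shorter expressed transcript would raise its value.

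The promoter of Bcl2l11 is shown because that gene gave the clearest difference between groups. The 250 bases before its first RefSeq start site, GRCm38.p6 chr2:128125788-128126037 on the plus strand, are given from 5′ to 3′, with capitals for the FOXO core TGTTTAC (here on the other strand as GTAAACA) and for the hypoxia-response core GCGTG (here on the other strand as CACGC).
Bcl2l11 promoter: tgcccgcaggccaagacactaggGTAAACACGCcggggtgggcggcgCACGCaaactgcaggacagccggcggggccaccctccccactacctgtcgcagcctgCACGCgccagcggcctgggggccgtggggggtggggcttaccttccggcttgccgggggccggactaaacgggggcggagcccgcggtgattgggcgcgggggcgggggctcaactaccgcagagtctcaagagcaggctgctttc
The FOXO core began 227 bases before the start site, and the first of the 3 GCGTG cores, at -222, shared 2 bases with it. FOXO factors are known activators of this gene. Both strands of every RefSeq promoter of this length were searched, and 3.17% of 32851 held TGTTTAC while 28.2% held GCGTG. Of the 14 promoters of the 9 genes, 2 held TGTTTAC (start site 1 of Bcl2l11 and start site 2 of Bbc3) and 6 held GCGTG. Another 2 counts were of ACGTG, the other hypoxia-response core, which 16.6% of all promoters held. Start site 2 of Bcl2l11 held none of these cores. Every start site of Bbc3 held GCGTG, and the windows of its start sites 2 and 3 overlap, so the 14 are not independent. The GC box GGGCGG was in 10 of the 14, against 32.7% of all. None of the 14 held the STAT core TTCNNNGAA (7.02% of all) or the AP-1 core TGANTCA (6.75% of all). These motifs were chosen after the expression values were seen, and a match of letters is not a bound site.

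Among the guardians, Bcl2l1 had the lower O2-PBS values. Its levels were 68.1, 57.2, 57.2 and 66.8 CPM in RA-PBS animals, 50.5, 46.5, 52.7 and 56.1 in O2-PBS and 53.4, 71.7, 53.6 and 51.2 in O2-IC100, animal 10 being the 71.7. The highest O2-PBS retina thus lay just under the lowest RA-PBS retina. The log2 fold change of O2-PBS against RA-PBS was -0.28 (SE 0.129, 95% interval -0.56 to 0.01, adjusted p = 0.714 by edgeR) with 12 animals. Without animal 10, which belongs to neither group but enters the common estimate of spread, it was again -0.28 (SE 0.0872, interval -0.47 to -0.09, adjusted p = 0.0673 by edgeR). This call on the adjusted p alone was lost when animal 1 was left out too (-0.23, adjusted p = 0.152) and when the Y-linked level was a covariate (adjusted p = 0.128). The difference of O2-IC100 from O2-PBS was within the error (0.05 without animal 10, adjusted p = 0.782, and 0.16 with it, adjusted p = 0.508, by edgeR).

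Mcl1 was measured at 89.8, 73.3, 85.1 and 92.0 CPM in RA-PBS, at 107.3, 92.1, 98.2 and 96.9 in O2-PBS and at 95.6, 180.2, 94.5 and 97.0 in O2-IC100. Every retina of the O2 groups lay above every RA-PBS retina, by a small margin. For O2-PBS against RA-PBS the log2 difference was 0.21 both with 12 animals (adjusted p = 1 by edgeR) and without animal 10 (interval 0.03 to 0.39, adjusted p = 0.147). O2-IC100 against O2-PBS without animal 10 was -0.03 (interval -0.22 to 0.17, adjusted p = 0.88 by edgeR) and 0.24 with it (adjusted p = 0.515). Bcl2 ran from 5.22 to 11.2 CPM in RA-PBS and from 8.32 to 11.2 in O2-PBS. In O2-IC100 it was 8.57, 46.8, 9.75 and 9.90, so that animal 10 set the group mean of 18.8 ± 18.7 (SD, n = 4). Without it the mean was 9.41 ± 0.728 (n = 3), within the RA-PBS range.

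The O2-PBS levels of both effectors lay within the RA-PBS range. Bax was at 35.1, 27.7, 33.0 and 44.8 CPM in RA-PBS, at 33.1, 33.9, 34.5 and 32.3 in O2-PBS, and at 43.2, 64.9, 38.8 and 38.2 in O2-IC100. All 4 O2-IC100 retinas lay above all 4 O2-PBS retinas, but the RA-PBS retinas spread across both. O2-IC100 against O2-PBS gave a log2 fold change of 0.47 with 12 animals (SE 0.188, interval 0.05 to 0.88, adjusted p = 0.287 by edgeR). Without animal 10 it was 0.27 (SE 0.130, interval -0.01 to 0.56, adjusted p = 0.267 by edgeR), with the groups still apart. Such separation was common, at 20.8% of all genes tested with 12 animals and 35.2% without animal 10. Bak1 lay between 12.7 and 18.5 CPM in RA-PBS, between 14.9 and 17.1 in O2-PBS and between 14.9 and 16.7 in O2-IC100 animals 9, 11 and 12, with 44.9 in animal 10. The 18.5 was RA-PBS animal 1, and the other RA-PBS retinas were at 12.7 to 13.5, below every retina of the O2 groups. The Bak1 levels overlapped in each comparison, with RA-PBS only through animal 1. The Bak1 difference of O2-IC100 against O2-PBS went from 0.52 to -0.00 on the log2 scale when animal 10 was left out (adjusted p = 0.395 and 0.996 by edgeR).

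Among the BH3-only genes, Bcl2l11 gave the largest O2 difference relative to its error. It encodes BIM, a BH3-only protein that binds all the guardians and is known to drive death of retinal neurons and pruning of retinal vessels. Its levels were 14.9, 16.2, 17.5 and 14.2 CPM in RA-PBS, 23.3, 19.8, 20.9 and 20.7 in O2-PBS and 15.8, 28.8, 17.2 and 16.0 in O2-IC100. Every O2-PBS retina was above every RA-PBS retina and above O2-IC100 animals 9, 11 and 12. Without animal 10, 14.4% of all genes did not overlap for O2-PBS against RA-PBS, and 35.2% for O2-IC100 against O2-PBS. O2-IC100 animals 9, 11 and 12 lay within the RA-PBS range, while animal 10 was the highest of all after TMM scaling. Means were 15.7 ± 1.45 CPM in RA-PBS (SD, n = 4), 21.2 ± 1.48 in O2-PBS (n = 4) and 16.3 ± 0.757 in O2-IC100 without animal 10 (n = 3).

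The log2 fold change of Bcl2l11 for O2-PBS against RA-PBS was 0.43 (SE 0.190, interval 0.01 to 0.84, adjusted p = 0.678 by edgeR) with 12 animals. Without animal 10 the size was again 0.43, with a smaller error (SE 0.0966, interval 0.22 to 0.64, adjusted p = 0.0153 by edgeR), below the 1.5-fold minimum. Without animal 10, O2-IC100 against O2-PBS was -0.36 (SE 0.105, interval -0.58 to -0.13, adjusted p = 0.14 by edgeR), which missed the adjusted threshold. With animal 10 it was -0.13 (interval -0.54 to 0.29, adjusted p = 0.723). DESeq2 without animal 10 gave -0.38 with an adjusted p of 0.0419, and limma voom gave an adjusted p of 0.139. O2-IC100 against RA-PBS was 0.07 (interval -0.15 to 0.30, adjusted p = 0.789 by edgeR) without animal 10. The first 2 comparisons share the O2-PBS animals and are not independent of each other. For O2-PBS against RA-PBS, 5 other settings without animal 10 (DESeq2, voom, the Y-linked or lens covariate, and removal of animal 1 too) gave adjusted p values of 0.00215 to 0.0405.

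**Figure D2:**
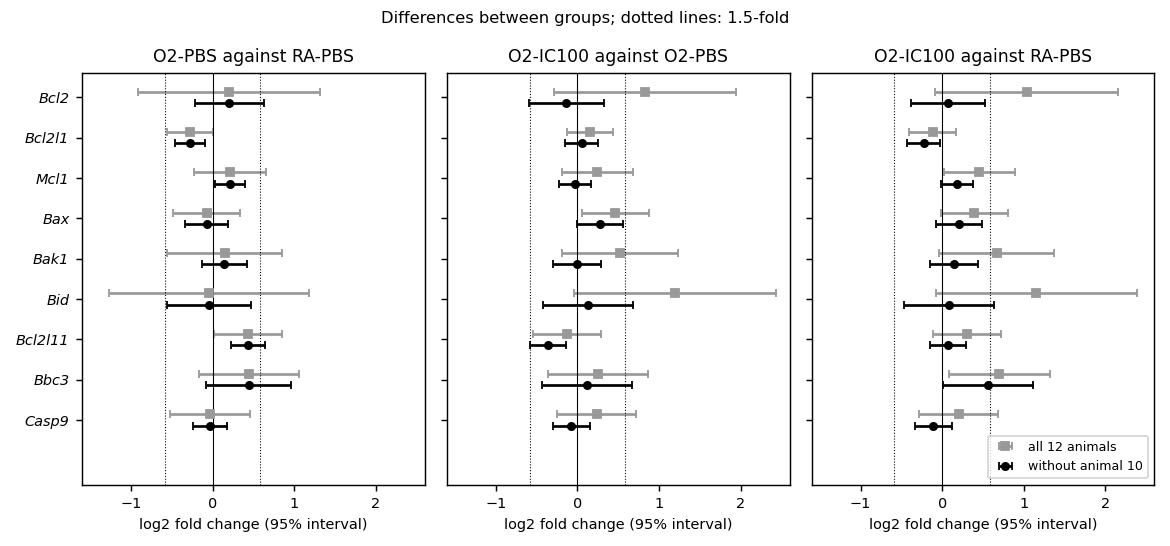
Log2 fold change (horizontal axes) with 95% intervals for the 9 genes in the 3 comparisons; grey squares are the fit of all 12 animals, black circles the fit without animal 10, and dotted lines mark 1.5-fold. For O2-PBS against RA-PBS the points coincide and the intervals narrow without animal 10, while for O2-IC100 against O2-PBS the points for Bcl2 and Bid shift from 0.83 and 1.20 to -0.14 and 0.13.

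Several cell type markers, each given as a summed level, moved with Bcl2l11. The 10 endothelial markers were at 195 to 274 CPM in RA-PBS, 406 to 468 in O2-PBS and 306 to 341 in O2-IC100 without animal 10, all being detected in each retina. The 8 reactive glia markers were at 170 to 581, 483 to 743 and 262 to 348 in the same order, RA-PBS and O2-PBS overlapping. In the other direction, 8 retinal ganglion cell markers were at 912 to 1337, 739 to 808 and 912 to 957, and 6 Müller glia markers at 2929 to 4115, 2313 to 2643 and 2884 to 3113, with O2-PBS below both other groups. Their part in the Bcl2l11 difference was not tested, and in bulk retina fewer cells of a type and less RNA per cell cannot be told apart. In the 7 retinas with high Y-linked levels, Bcl2l11 was at 14.9 to 17.5 CPM in RA-PBS animals 1 to 3, at 20.7 in O2-PBS animal 8 and at 15.8 to 17.2 in O2-IC100 animals 9, 11 and 12. In the 4 others it was 14.2 in RA-PBS animal 4 and 19.8 to 23.3 in O2-PBS animals 5 to 7. O2-PBS animals were above RA-PBS animals within both sets. The first set held 1 O2-PBS animal, and the second held 1 RA-PBS animal and no O2-IC100 animal other than animal 10, at 28.8. With so few animals, group and Y-linked level cannot be told apart. With the Y-linked level as a covariate and without animal 10, the adjusted p was 0.0338 for O2-PBS against RA-PBS and 0.139 for O2-IC100 against O2-PBS, where the size was -0.41.

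**Figure D3:**
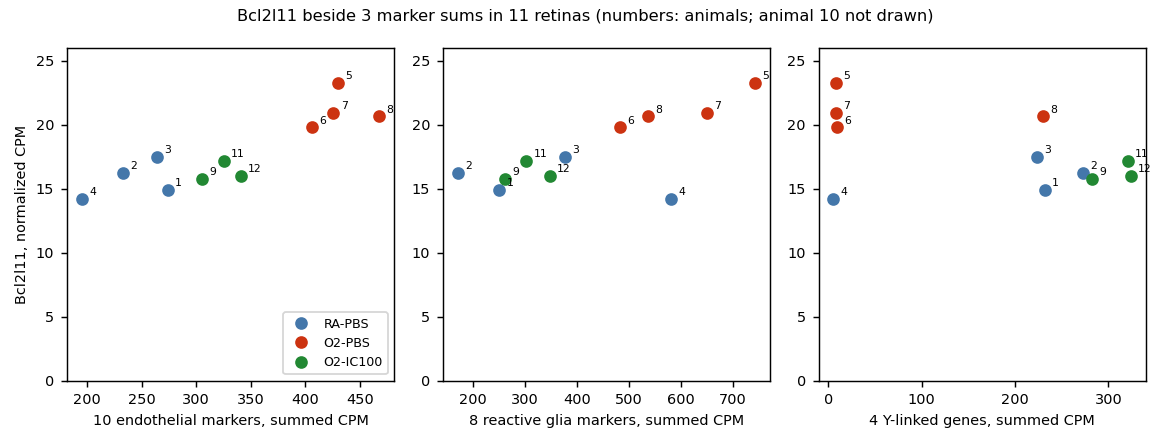
Bcl2l11 level (vertical axis, normalized CPM) against the summed CPM of 10 endothelial, 8 reactive glia and 4 Y-linked genes (horizontal axes) in 11 retinas, numbered by animal and coloured by group, without animal 10. The 4 O2-PBS retinas were highest for both Bcl2l11 (19.8 to 23.3) and the endothelial sum (406 to 468), and O2-PBS animal 8, at 20.7, was the one O2-PBS retina with a high Y-linked level.

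The other BH3-only genes differed less clearly. Bbc3, which encodes PUMA and is a p53 target, was at 3.65, 4.78, 4.83 and 6.00 CPM in RA-PBS, at 8.56, 6.31, 6.11 and 5.27 in O2-PBS and at 9.48, 10.4, 4.27 and 7.40 in O2-IC100. Means were 4.82 ± 0.962, 6.56 ± 1.41 and 7.88 ± 2.70 (SD, n = 4 each), and all groups overlapped. O2-IC100 against RA-PBS gave 0.70 on the log2 scale with 12 animals (SE 0.281, adjusted p = 0.374 by edgeR) and 0.56 without animal 10 (SE 0.257, adjusted p = 0.316 by edgeR). Bid, which caspase-8 cleaves to link death receptors to mitochondria, lay between 2.51 and 5.85 CPM in RA-PBS and between 3.65 and 4.41 in O2-PBS. In O2-IC100 it was 3.73, 23.7, 5.23 and 3.68. Its O2-IC100 against O2-PBS difference of 1.20 with 12 animals (adjusted p = 0.302 by edgeR) was 0.13 without animal 10 (adjusted p = 0.8).

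Casp9 was at 32.7, 28.2, 26.8 and 24.6 CPM in RA-PBS, at 28.1, 25.3, 28.4 and 28.1 in O2-PBS and at 26.5, 52.3, 24.2 and 26.7 in O2-IC100. The O2-PBS values lay inside the RA-PBS range, and the log2 difference between these groups was -0.03 (interval -0.24 to 0.18, adjusted p = 0.876 by edgeR) without animal 10 and -0.03 (interval -0.52 to 0.45, adjusted p = 1) with it. Both intervals lie within 1.5-fold in either direction. O2-IC100 against O2-PBS gave -0.08 without animal 10 (interval -0.30 to 0.15, adjusted p = 0.703 by edgeR) and 0.23 with it (interval -0.25 to 0.72, adjusted p = 0.573).

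Ratios of counts within a retina do not depend on scaling between libraries. The ratio of Bax to Bcl2l1 counts was 0.516, 0.484, 0.577 and 0.670 in RA-PBS, 0.656, 0.729, 0.655 and 0.576 in O2-PBS and 0.810, 0.905, 0.723 and 0.745 in O2-IC100. Of the O2-IC100 retinas, 3 were above every other retina and animal 11, at 0.723, lay just under O2-PBS animal 6. The ratio of Bcl2l11 to Mcl1 was 0.166, 0.221, 0.205 and 0.155 in RA-PBS, 0.217, 0.215, 0.213 and 0.213 in O2-PBS and 0.165, 0.160, 0.182 and 0.165 in O2-IC100. Here animal 10, the retina rich in crystallin counts, lay with its own group, and all 4 O2-IC100 retinas were below all 4 O2-PBS retinas. The RA-PBS ratios, from 0.155 to 0.221, spanned both groups. No test was run on these ratios, and they were not set against ratios of other genes. The Bax to Bcl2 ratio ran from 2.48 to 6.73 in RA-PBS, which covered both the O2-PBS range of 2.95 to 3.89 and the O2-IC100 values of 3.86 to 5.04 in animals 9, 11 and 12, with 1.39 in animal 10.

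Over the 9 genes the median log2 fold change was 0.15 for O2-PBS against RA-PBS, 0.26 for O2-IC100 against O2-PBS and 0.46 for O2-IC100 against RA-PBS with 12 animals. The medians of all genes tested were -0.01, 0.00 and 0.02. Without animal 10 the medians of the 9 genes were 0.15, -0.00 and 0.08, against -0.01, 0.00 and 0.02 for all genes. The numbers of the 9 genes that did not overlap between groups were 3, 1 and 1 with 12 animals, where 14.4%, 20.8% and 5.84% of all genes were so, and 3, 2 and 2 without animal 10, against 14.4%, 35.2% and 10.7%.

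Of the 52 other cell death genes, 47 were tested. With 12 animals 0 passed the thresholds in each comparison by edgeR. An unadjusted p under 0.05 was found for 8, 12 and 8, against 7.12%, 16.9% and 13.2% of all genes. DESeq2, the tool of the study, put 4, 0 and 1 past the thresholds with 12 animals and limma voom 0, 0 and 0. Over all genes DESeq2 called 412, 112 and 280 of 25423, and voom 194, 2 and 2 of 16489. Groups did not overlap for 11, 19 and 3 of the 47 without animal 10, against 14.4%, 35.2% and 10.7% of all genes. Without animal 10, 5 rose in O2-PBS against RA-PBS and 0 fell, 0 changed in O2-IC100 against O2-PBS, and 1 rose in O2-IC100 against RA-PBS. Of all genes tested, 4.09% rose and 2.18% fell in the first of these comparisons, 0.216% and 0.731% in the second, and 0.947% and 0.617% in the third. The differences of these genes are given without animal 10. With 12 animals, the adjusted p for O2-PBS against RA-PBS was 0.281 for Tnfrsf1a, 0.72 for Casp8, 0.13 for Atf3, 0.137 for Bcl2a1b and 0.415 for Casp6 by edgeR. Tnfrsf1a, the receptor for TNF, rose from 6.90, 4.15, 9.27 and 7.00 CPM to 27.4, 12.8, 14.2 and 16.1 (log2 fold change 1.36, SE 0.252, adjusted p = 0.00525 by edgeR). Casp8, the initiator caspase of death receptors, rose by 0.90 (SE 0.256, adjusted p = 0.046), with all O2-PBS retinas (2.83 to 3.56 CPM) above all RA-PBS retinas (1.06 to 2.02). The stress-response factor Atf3 rose by 1.43 (SE 0.284, adjusted p = 0.00809), from 2.61 to 4.66 CPM up to 6.62 to 16.0. Bcl2a1b, an anti-apoptotic gene of leukocytes, rose by 2.66 (SE 0.600, adjusted p = 0.0155) in O2-PBS and by 2.89 (SE 0.616, adjusted p = 0.0534) in O2-IC100 against RA-PBS. Its level was at most 0.905 CPM in the 11 retinas, and reads of its near-identical Bcl2a1 copies may be split among them, so its value is uncertain. The 10 microglia markers summed to 54.4 to 116 CPM in RA-PBS, 104 to 134 in O2-PBS and 132 to 162 in O2-IC100 animals 9, 11 and 12, and their part in these differences was not tested.

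Casp6, the gene of an executioner caspase, rose in O2-PBS, from 4.82, 5.26, 5.94 and 4.95 CPM to 8.08, 8.13, 8.37 and 8.70 (log2 fold change 0.67, SE 0.164, adjusted p = 0.0243 by edgeR, without animal 10). All O2-PBS retinas were thus above all RA-PBS retinas. In O2-IC100 animals 9, 11 and 12 it was at 8.73, 6.82 and 5.00 CPM, which spread across both other groups, and its difference from O2-PBS did not pass (-0.27, adjusted p = 0.398 by edgeR).

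Further genes met the adjusted threshold alone for O2-PBS against RA-PBS without animal 10, which 11 of the 47 did against 12.4% of all genes tested. With 12 animals 0 of the 47 met it, with an adjusted p of 0.669 for Apaf1 and 0.437 for Trp53 by edgeR. Apaf1, the scaffold of the apoptosome, was higher by 0.39 (SE 0.111, adjusted p = 0.0458 by edgeR), and Trp53, the gene of p53, by 0.57 (SE 0.145, adjusted p = 0.0269), a fold of 1.486 and so just under the minimum. Trp53 was at 15.4 to 27.0 CPM in RA-PBS, 30.5 to 36.9 in O2-PBS and 21.2 to 21.9 in O2-IC100 animals 9, 11 and 12. Its O2-IC100 against O2-PBS difference was -0.59 (SE 0.157, adjusted p = 0.116 by edgeR), past the fold but not the adjusted p. With animal 10, at 33.3 CPM, that difference was -0.42 (adjusted p = 0.305 by edgeR). Ccng1, a p53 target, ran the other way, lower by 0.42 in O2-PBS (adjusted p = 0.0414). Its level was 1092 CPM in animal 10, against 71.4 to 75.3 in the other O2-IC100 retinas. Cdkn1a, another p53 target, was higher in O2-PBS by 0.69, with an adjusted p of 0.116 by edgeR. Of the 9 tested genes of Trp53 and its targets, 5 were higher in O2-PBS. The effector Bok was higher by 0.52 (adjusted p = 0.0878) and the death receptor kinase Ripk1 by 0.40 (adjusted p = 0.0919).

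Against O2-PBS, O2-IC100 retinas without animal 10 had values for Tnfrsf1a of 8.89, 10.1 and 9.90 CPM and for Atf3 of 3.78, 5.86 and 4.56, all below the lowest O2-PBS retina. The log2 differences were -0.85 (adjusted p = 0.161 by edgeR) and -1.01 (adjusted p = 0.15), which missed the threshold. Animal 10 was at 27.5 CPM for Tnfrsf1a, above every O2-PBS retina, and at 8.33 for Atf3, within the O2-PBS range. With 12 animals the differences were -0.33 (adjusted p = 0.657 by edgeR) and -0.79 (adjusted p = 0.289). DESeq2 without animal 10 put 4 of these genes past the thresholds, all lower in O2-IC100 (Atf3, Tnfrsf1a, Trp53 and Birc5), while limma voom put 0. Over all genes these fits called 394 of 25267 (81 higher and 313 lower) and 128 of 16688 (25 higher and 103 lower). Cycs, the gene of cytochrome c, was at 43.3, 46.0 and 47.0 CPM against 28.2 to 36.0 in O2-PBS (0.52, adjusted p = 0.15 by edgeR). The guardian Bcl2l2 (0.17, adjusted p = 0.276), the mitophagy receptor Bnip3 (-0.20, adjusted p = 0.444) and the stress-response gene Trib3 (-0.06, adjusted p = 0.894) did not pass either without animal 10.

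**Figure D4:**
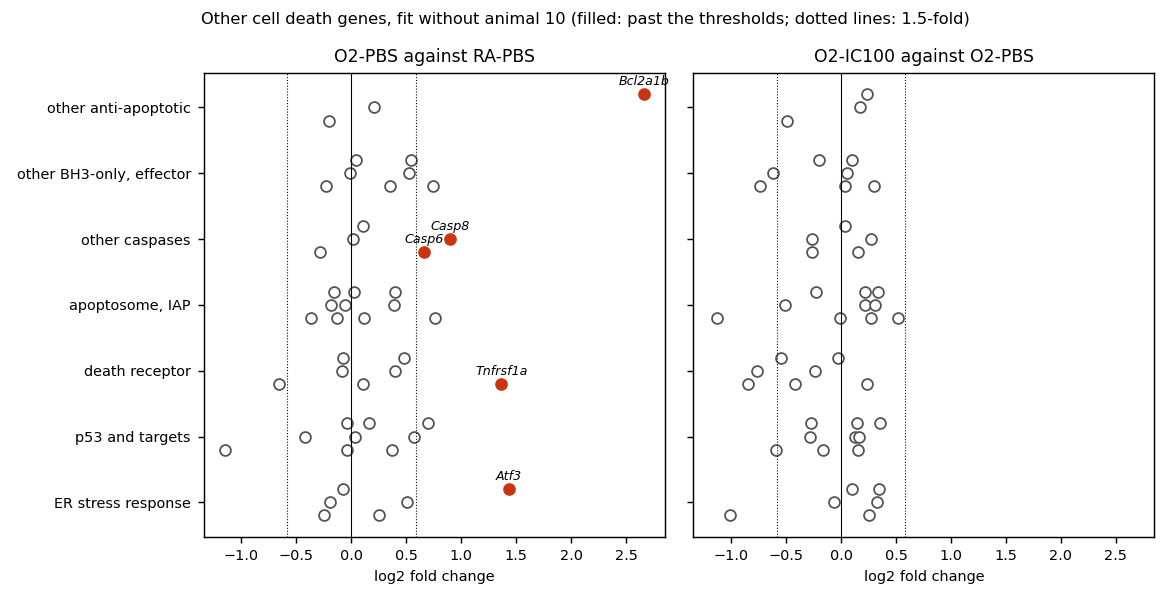
Log2 fold change (horizontal axes) of the 47 other cell death genes tested, one point a gene in rows by list, without animal 10; filled points passed the thresholds and dotted lines mark 1.5-fold. In all, 5 genes passed for O2-PBS against RA-PBS, from 0.67 for Casp6 to 2.66 for Bcl2a1b, and 0 passed for O2-IC100 against O2-PBS.

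Genes whose pattern was most like that of each of the 9 were sought over the 11 retinas without animal 10, among 15148 genes, by Pearson's r of log2 CPM. These values are a description over retinas that share group differences and library composition. Bcl2l11 was closest to Pfkp (0.984), a glycolytic enzyme gene, and Fn1 (0.980), which encodes fibronectin. Bcl2l1 was closest to Chn2 (0.977) and Lrrn1 (0.956), Mcl1 to Cd151 (0.952) and Anxa5 (0.945), and Bax to Rpl7l1 and Gpn3 (0.963 each). Bak1 was closest to Tubb4b (0.946), Casp9 to Slc35c1 (0.951), Bcl2 among named genes to Ncln (0.954) and Bid to Rnf103 (0.942). Among the 9 genes themselves the strongest pairings were Bax with Bid (0.759) and Bcl2l1 with Bcl2l11 (-0.687).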

How the data were processed

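Retinal RNA-seq of 12 mice was analysed, and groups were taken from the labels. The authors prepared polyA-selected 150 bp paired-end libraries, pseudoaligned reads with Kallisto to GRCm39_104 and summarised them with tximport. The deposited values are expected counts per gene, not scaled to library size, 42.2% of them not whole, and they were rounded. Symbols came from a GENCODE M21 table for 35374 of 36131 identifiers, and exon lengths from the same GRCm38 annotation. The labels end the O2 exposure at P12, whereas P11 is its last day in the methods.

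One edgeR 4.0.16 quasi-likelihood fit of the 3 groups (R 4.3.3, TMM, robust, filterByExpr) tested 16489 genes, and the same fit without animal 10 tested 16688. Thresholds followed the study, which used DESeq2. DESeq2 1.42.0 and limma 3.58.1 voom were alternatives. Intervals came from the quasi-likelihood t distribution. Scripts were tested on simulated data. The 9 genes and the other lists were chosen with earlier results of these data known. Named beside the 9 were other cell death genes past the thresholds and those ranked first by p in their list; some genes of the lists are not reported here. Each sample is a separate animal. Counts of 5 of the 52 other cell death genes were too low to test.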

Additional observations from a re-analysis of the deposited data

Results flagged for a closer look

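Of 27 groups of 4 retinas, 3 for each of the 9 genes, 10 held a retina beyond Dixon's 95% critical value for the gap to its nearest neighbour, where chance flags about 1 in 20 groups. Of the 10, 7 were animal 10 in the O2-IC100 group, the retina with 59.0% of counts from crystallin genes. Its levels were 46.84 CPM for Bcl2, 71.71 for Bcl2l1, 180.2 for Mcl1, 44.94 for Bak1, 23.73 for Bid, 28.78 for Bcl2l11 and 52.27 for Casp9, each the highest of its group. These levels rest on its TMM factor of 0.3244. Before scaling, its counts of Bcl2l1 (568), Mcl1 (1427), Bcl2l11 (228) and Casp9 (414) were the lowest of all retinas, in the library with the highest total. Its counts of Bcl2 (371), Bak1 (356) and Bid (188) were the highest.

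The other 3 were single retinas. Bak1 was high in RA-PBS animal 1 (18.46 CPM, against 12.7 to 13.5 in the other 3), Bcl2 was low in O2-PBS animal 8 (8.315 CPM, against 11.1 to 11.2), and Casp9 was low in O2-PBS animal 6 (25.28 CPM, against 28.1 to 28.4).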

How the results depend on the processing

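Of 756 log2 differences of the 9 genes under an alternative, 701 kept their direction and side of the thresholds, 45 reversed and 10 newly passed. Leaving out any 1 animal left each count of genes past the thresholds at 0. For O2-PBS against RA-PBS, 2 genes passed with a lens covariate (Bcl2 1.29, Bcl2l11 0.72), and without animal 10 it was 2 with no minimum fold and 1 with a lens covariate (Bcl2 0.88). For O2-IC100 against O2-PBS, 3 passed with a Y-linked covariate (Bcl2 0.90, Bax 0.59, Bid 1.23). For O2-IC100 against RA-PBS, 3 passed with a lens covariate (Bcl2 1.11, Bid 1.04, Bbc3 0.82), and 1 with it without animal 10 (Bcl2 0.67). The cause was not tested. Without animal 10, the DESeq2, voom, lens covariate and no minimum fold settings were chosen after seeing the data.

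Reversed values for O2-PBS against RA-PBS were, with a Y-linked covariate, -0.28 for Bcl2 and -0.094 for Bak1; with a lens covariate, 0.15 for Bax, 0.76 for Bid and 0.20 for Casp9; with upper-quartile scaling, 0.0064 for Bid and 0.014 for Casp9; and with voom 0.023 for Bid. Without animal 10 they were 0.027 for Bid (voom), -0.18 for Bak1 (lens covariate) and 0.032 for Casp9 (Y-linked covariate), and without animals 1 and 10 0.053 for Casp9. For O2-IC100 against O2-PBS, Bcl2 was -0.18 with a lens covariate. Without animal 10, DESeq2, voom and the lens covariate gave Bcl2 -0.15, -0.12 and -0.22, Mcl1 -0.044, -0.026 and -0.015, and Casp9 -0.092, -0.0757 and -0.046. There Bak1 was -0.018 with DESeq2, and the Y-linked covariate gave Bak1 -0.065 and Casp9 -0.19. Without animals 1 and 10, Bcl2 was -0.14, Mcl1 -0.0283, Bak1 -0.0016 and Casp9 -0.076. For O2-IC100 against RA-PBS, removal of both gave Bcl2 -0.12 and Casp9 -0.023. Without animal 10, Casp9 was -0.13 with DESeq2, -0.10 with voom, -0.16 with the Y-linked and -0.31 with the lens covariate, and Bak1 -0.14 with the last.

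Leaving out 1 animal at a time gave, for O2-PBS against RA-PBS, -0.17 to 0.066 for Bax, -0.21 to 0.19 for Bid and -0.0895 to 0.049 for Casp9, which reversed without animal 4 (Bax, Bid), 1 or 6 (Casp9). For O2-IC100 against O2-PBS it gave -0.14 to 1.07 for Bcl2, -0.0282 to 0.33 for Mcl1, -0.0016 to 0.68 for Bak1 and -0.0759 to 0.35 for Casp9, and for O2-IC100 against RA-PBS -0.11 to 0.32 for Casp9, each reversed without animal 10. Over all genes, the 133 that passed for O2-PBS against RA-PBS became 412 with DESeq2 (352 higher and 60 lower, against 129 and 4), 867 with only those groups, 2509 with a lens covariate and 1046 without animal 10; the 0 for O2-IC100 against O2-PBS became 112 with DESeq2, 3675 with a Y-linked covariate and 158 without animal 10; and the 0 for O2-IC100 against RA-PBS became 280 with DESeq2, 3490 with a lens covariate and 261 without animal 10. The 5 other cell death genes that rose in O2-PBS without animal 10 numbered 7 with DESeq2 and 6 with voom there, and all 5 were among them both times; with the Y-linked covariate Casp8 was lost, and with the lens covariate Atf3 and Casp8. For O2-IC100 against O2-PBS the 0 became 12 higher and 1 lower with the Y-linked covariate and all 12 animals. No paired analysis was possible because each animal belongs to 1 group and the numbers pair no animals across groups.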
